A study of Mus musculus with 20 samples.

Results

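The pericentral genes that depend on Wnt signaling were followed through a liver RNA-seq series as a set of 10: Glul, Oat, Axin2, Lgr5, Tbx3, Rnf43, Znrf3, Rhbg, Slc1a2 and Lect2. Members were taken by gene symbol from a gene count table of 55421 genes, of which 22867 were tested, and all 10 were found once and tested. Poly(A) RNA from whole liver was sequenced from wildtype C57BL/6 mice labelled female that had received AAV8 carrying saCas9 under the hepatocyte promoter Tbg together with a guide. The guide targeted either Hira, which encodes a histone chaperone, or Rosa26 as the control locus. The virus was given to mice aged 6 months, and liver was collected 3 weeks or 6 months afterwards, with 5 libraries in each of the 4 groups. All mice of both arms therefore carried the same virus type and nuclease. Only hepatocytes express this nuclease, so other liver cells keep an intact Hira gene, and in whole liver fewer cells of a type and less RNA per cell cannot be told apart. The sources do not agree on sex, since the labels give female and the study's text also gives male.

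In the liver lobule, endothelial cells around the central vein release Wnt ligands and R-spondins, and hepatocytes next to them respond through Frizzled and LRP receptors, stabilized beta-catenin and TCF transcription factors. LGR receptors with R-spondins shield the Frizzled receptors from the ligases RNF43 and ZNRF3, which otherwise remove them from the cell surface, while AXIN2 is part of the complex that degrades beta-catenin. The hepatocytes that receive this signal switch on glutamine synthesis and other pericentral functions, and periportal genes are kept low there.

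The annotated gene starts are given here because the Wnt response is read at promoters and enhancers. RefSeq start windows of 250 bases upstream of a start were present for 6 of the 10 members (Glul, Oat, Axin2, Rnf43, Slc1a2 and Lect2), with Rnf43 having more than 1, so that 7 windows were searched. Lgr5, Tbx3, Znrf3 and Rhbg had no entry. The TCF core motif CTTTGA or its complement TCAAAG was in 2 of the 7 windows and in 13.8% of 32841 windows of the same length genome-wide. CTTTGT or its complement ACAAAG was in 0 of the 7 and in 16.5% of all windows. Below are the windows of Glul, the most abundant member and the classical pericentral enzyme, of Axin2, the usual transcriptional readout of beta-catenin, and of Lect2, the member with the smallest adjusted p for the HIRA guide. Each is printed 5′ to 3′ on the strand of its gene (GRCm38.p6, RefSeq), ending just before the start, with CTTTGA or TCAAAG in capitals.
Glul, chr1:153899679-153899928, plus strand: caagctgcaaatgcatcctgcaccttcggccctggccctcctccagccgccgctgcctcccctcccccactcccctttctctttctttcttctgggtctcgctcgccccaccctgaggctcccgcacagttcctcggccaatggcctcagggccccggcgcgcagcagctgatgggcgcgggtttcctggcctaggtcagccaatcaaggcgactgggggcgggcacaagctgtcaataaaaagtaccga
Axin2, chr11:108920099-108920348, plus strand: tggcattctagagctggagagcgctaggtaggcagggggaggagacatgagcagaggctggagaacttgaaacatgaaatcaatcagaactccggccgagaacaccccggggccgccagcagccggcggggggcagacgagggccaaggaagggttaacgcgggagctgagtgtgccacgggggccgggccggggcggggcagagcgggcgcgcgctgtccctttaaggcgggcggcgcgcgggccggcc
Lect2, chr13:56548539-56548788, minus strand: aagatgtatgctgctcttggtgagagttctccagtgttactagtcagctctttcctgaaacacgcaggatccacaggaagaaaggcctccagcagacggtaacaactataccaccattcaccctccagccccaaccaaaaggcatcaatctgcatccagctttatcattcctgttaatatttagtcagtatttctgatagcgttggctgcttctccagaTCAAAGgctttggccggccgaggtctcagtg
Lect2 had its single match 31 bases before the start, on the opposite strand, while the Glul and Axin2 windows held no match. The other window with the motif was that of Slc1a2, with matches at -206 and -77, but this RefSeq start lies inside the gene as annotated in GENCODE. Both Rnf43 starts, whose windows held no match, also lie inside the annotated gene. All 250 bases of the first Rnf43 window are exon of Rnf43. A match in these letters is a description of the window and was not tested as a binding site.

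Libraries held between 19916430 and 24079736 counts, and every replicate pair differed by more than sampling noise. The library labelled HIRA 6 months replicate 5 went against its label, with 9 Xist counts against 6286 to 8436 in the other 19 libraries and 2041 counts on Y-linked genes against 0 to 13, so member fold changes that use the HIRA 6-month group are also given without it, and so are the counts of several lists. That library was the lowest of its group on the summed markers of endothelial cells (142.9 CPM), Kupffer cells (90.6 CPM), cholangiocytes (46.8 CPM), stellate cells and fibroblasts (190.5 CPM) and lymphocytes (4.83 CPM), while its hepatocyte sum was inside the range of the others. In what follows a gene is called, or passes, at adjusted p under 0.05, and the 2-fold limit is named where it was added. Hira CPM (counts scaled to library size by TMM) in Rosa26 livers at 3 weeks were 6.49, 8.54, 7.30, 6.04 and 6.33, against 5.81, 5.95, 4.36, 4.55 and 4.15 with the HIRA guide, so the groups did not overlap (log2 fold change -0.48 ± 0.14 SE, adjusted p = 0.197). At 6 months Hira lay between 4.82 and 7.32 CPM in Rosa26 livers and between 4.96 and 6.51 in HIRA livers (log2 fold change -0.10 ± 0.14, adjusted p = 0.794), so Hira RNA did not separate the groups there. The highest of these HIRA values was that of the library that went against its label, and without it the other 4 lay between 4.96 and 5.64 CPM (-0.16 ± 0.14, adjusted p = 0.614). HIRA protein was not measured in these files, but the study reports from western blots that the protein was lost with this CRISPR approach. Hepatocyte markers (Alb, Ttr, Apoa1, Tat, Serpina3k and Fgb) together gave 82906 to 162060 CPM over all libraries, and no marker of the 6 cell-type lists was at 0 in a group. Alb alone averaged 102248 CPM, so the hepatocyte sums mostly reflect Alb.

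Levels per kilobase of exon (RPKM, computed here from CPM and the union of annotated exons) fell into 2 tiers. Glul, which encodes glutamine synthetase, averaged 332 ± 69.4 RPKM (SD, n = 20 libraries). Oat, the ornithine aminotransferase that works next to it, averaged 230 ± 66.3 RPKM, and Lect2, which encodes a secreted hepatokine, 125 ± 24.3 RPKM. These genes stood above all others of the set. Slc1a2, a glutamate transporter, averaged 8.37 RPKM, the transcription factor Tbx3 6.24, the ligase Rnf43 4.46, Axin2 2.25, the ammonium transporter Rhbg 1.81, Znrf3 1.72 and the receptor Lgr5 0.712. Only the step from Lect2 to Slc1a2 had ranges that did not overlap. Within libraries, Oat was above Lect2 and Znrf3 above Lgr5 in 20 of 20, Tbx3 above Rnf43 and Rnf43 above Axin2 in 19, Slc1a2 above Tbx3 in 18, Glul above Oat in 15, Axin2 above Rhbg in 14 and Rhbg above Znrf3 in 11. This order differed in part from that of the deposited FPKM, which averaged 24.3 for Slc1a2, 4.47 for Rhbg, 3.97 for Axin2 and 1.42 for Lgr5, or 2.90, 2.46, 1.76 and 2.00 times the RPKM, and put Rhbg above Axin2. For the other 6 the FPKM was 0.986 to 1.46 times the RPKM. Counts on a second gene that overlaps a member reached 23.2% of the member's own for Tbx3os1, which lies antisense to Tbx3, 6.64% for Fgfr2 at Oat and 5.24% for 1110028F11Rik at Rnf43. Whether the counting used strand is not given in the sources used here, so reads of Tbx3 and Tbx3os1 may not be fully separated.

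**Figure D1:**
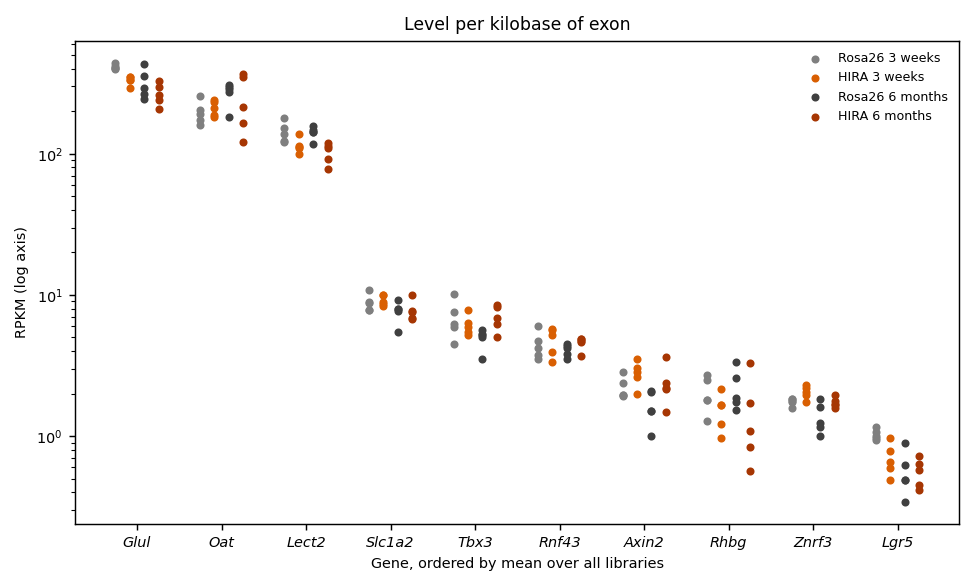
Level per kilobase of exon (RPKM, log axis) of the 10 genes in each of the 20 libraries, coloured by group and ordered by mean. Glul, Oat and Lect2 lie at or above 77.6 RPKM in every library, and the other genes at or below 10.8 RPKM.

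The first question was whether the HIRA guide changed these genes at 3 weeks. In edgeR's quasi-likelihood test no member passed adjusted p under 0.05, with or without a 2-fold limit, against 0.197% of all genes tested at adjusted p under 0.05 and 0.114% with the fold limit as well. DESeq2 and limma-voom likewise called 0 of 10. At unadjusted p under 0.05 there were 3 of 10 (Glul, Lgr5 and Lect2, all with lower means under the HIRA guide), against 8.87% of all genes. The members' median log2 fold change was -0.05 and that of all genes -0.01, with 5 members above 0 and 5 below. The 95% interval lay inside a 2-fold change for 9 of the 10, all but Rhbg.

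Glul CPM in Rosa26 livers at 3 weeks was 1342, 1397, 1348, 1468 and 1320, and in HIRA livers 1102, 1114, 977, 1157 and 1156. Every HIRA library was below every Rosa26 library, which made Glul the single member whose groups did not overlap, compared with 2.69% of all genes. Group means were 1375 ± 59.4 CPM with the Rosa26 guide and 1101 ± 73.7 CPM with the HIRA guide (SD, n = 5). On the log2 scale the fold change was -0.32 (95% interval -0.61 to -0.03, adjusted p = 0.492), so the difference did not hold after adjustment over all genes.

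Lgr5, the R-spondin receptor, was at 11.96, 9.58, 10.2, 9.96 and 10.9 CPM in Rosa26 livers and at 8.06, 9.98, 6.10, 4.99 and 6.72 CPM in HIRA livers. The groups touched through 1 HIRA library, replicate 2, which was as high as the controls. The log2 fold change was -0.55 (interval -0.995 to -0.111, adjusted p = 0.418). Lgr5 rested on 114 to 236 counts per library at this time. Lect2 CPM was 165.6, 113, 126.5, 111 and 140.3 in Rosa26 livers and 92.2, 103.7, 100.3, 126 and 103 in HIRA livers, with overlap through HIRA replicate 4. Its log2 fold change was -0.32 (interval -0.58 to -0.06, adjusted p = 0.431).

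Axin2 and Znrf3, both feedback genes of the pathway, had higher means with the HIRA guide and did not pass the test. Axin2 was between 10.6 and 15.8 CPM in Rosa26 livers and between 11.0 and 19.4 in HIRA livers (log2 fold change 0.34, interval -0.10 to 0.78, adjusted p = 0.720). Znrf3 was at 12.4 to 14.49 CPM in Rosa26 livers and at 13.7 to 18.3 CPM in HIRA livers (0.23, interval -0.03 to 0.50, adjusted p = 0.647). The other 5 members had log2 fold changes between -0.39 (Rhbg) and 0.11 (Rnf43), all with overlapping groups. The sign of Tbx3 among them rested on 1 library, since leaving out Rosa26 3 weeks replicate 1, at 67.1 CPM, moved it from -0.16 to 0.02.

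The 3-week groups also differed in clock genes: 5 of the 14 on the list were higher with the HIRA guide at adjusted p under 0.05 (Dbp by 4.55 ± 0.79, Ciart by 3.62 ± 0.71, Per3 by 2.56 ± 0.53, Tef by 1.47 ± 0.29 and Nr1d2 by 1.19 ± 0.22 on the log2 scale), and 0 were lower. The list summed to 320 to 396 CPM in Rosa26 livers and 397 to 734 CPM in HIRA livers. Of all genes 0.197% passed adjusted p under 0.05 in this contrast, and 8.87% had unadjusted p under 0.05. By the latter measure 7 clock genes were higher and 3 lower (Npas2 at -1.72 ± 0.55, Nfil3 at -1.12 ± 0.28 and Arntl at -1.03 ± 0.39). Limma-voom called 1 clock gene (Nr1d2) and DESeq2 7, of which Nfil3 was lower and the other 6 higher. The 6-month sums were 446 to 589 CPM in Rosa26 livers and 321 to 756 CPM in HIRA livers. For the guide at 6 months and between the times in HIRA livers, 0 clock genes passed in edgeR or limma-voom, and DESeq2 called 1 (Per1) for the guide at 6 months. At unadjusted p under 0.05 in edgeR there were 1 and 0, against 15.5% and 8.95% of all genes. Of 6 hepatocyte markers at 3 weeks, 0 were higher and 3 lower at unadjusted p under 0.05 (8.87% of all genes in either direction), and 0 passed adjusted p under 0.05. The list summed to 105678 to 148869 CPM in Rosa26 livers and 123508 to 162060 CPM in HIRA livers. Alb made up most of these sums and had 0.28 ± 0.17 in this contrast, while the list's median was -0.38. The part of clock genes and of hepatocyte markers in the Glul, Lgr5 and Lect2 values was not tested.

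**Figure D2:**
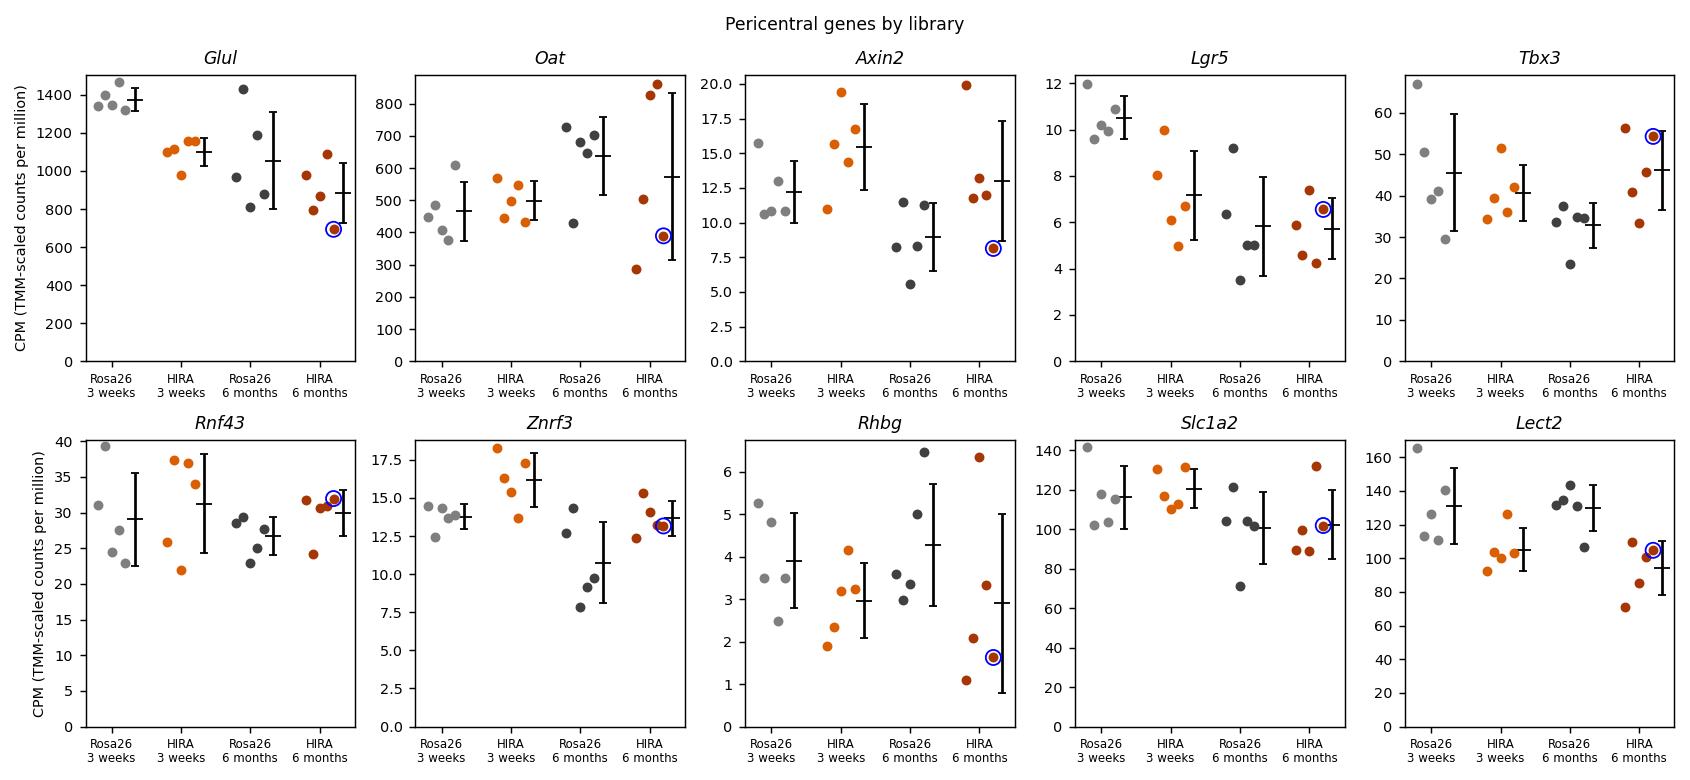
TMM-scaled CPM (linear axis from 0) of each of the 10 genes in the 5 libraries of each group, with the mean and SD as a bar beside them. The blue ring marks the library labelled HIRA 6 months replicate 5, and Glul is the gene whose 3-week groups do not overlap (977 to 1157 against 1320 to 1468 CPM).

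At 6 months the same question was asked in older livers. Again no member passed adjusted p under 0.05 in edgeR, against 1.31% of all genes, or 0.332% with the 2-fold limit, while limma-voom called 0 and DESeq2 called 1 (Lect2). Unadjusted p was under 0.05 for 4 of 10, compared with 15.5% of all genes: Axin2, Tbx3 and Znrf3 had higher means with the HIRA guide, and Lect2 a lower mean. No member had groups that did not overlap, compared with 3.15% of all genes. The members' median was 0.00 and that of all genes 0.03. The interval lay inside a 2-fold change for 9 of 10, again all but Rhbg.

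Lect2 was at 131.8, 134.8, 143.5, 131.3 and 107 CPM in Rosa26 livers and at 71.3, 109.8, 85.0, 100.5 and 104.7 CPM in HIRA livers. A single Rosa26 library, replicate 5, reached down into the HIRA range, and all 5 HIRA libraries were below the Rosa26 median. Group means were 129.7 ± 13.6 CPM and 94.3 ± 15.8 CPM (SD, n = 5). Lect2 thus had a log2 fold change of -0.46 (interval -0.72 to -0.20), with adjusted p = 0.0739 in edgeR, 0.0693 in limma-voom and 0.0172 in DESeq2, so its call depended on the tool. Without HIRA 6 months replicate 5 it was -0.50 (adjusted p = 0.0580 in edgeR). Over all alternatives the adjusted p ran from 0.0172 to 0.178.

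Axin2 was at 8.24, 11.5, 5.55, 8.29 and 11.2 CPM in Rosa26 livers and at 19.9, 11.8, 13.2, 12.0 and 8.13 CPM in HIRA livers. In 4 of the 5 HIRA libraries Axin2 was above every control, and the fifth, replicate 5, was the library that went against its label. The log2 fold change was 0.54 (interval 0.10 to 0.98, adjusted p = 0.217), or 0.67 without that library (adjusted p = 0.0921). Leaving out HIRA replicate 1, the highest, gave 0.33 (adjusted p = 0.496).

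Znrf3 was at 12.7, 14.3, 7.87, 9.17 and 9.72 CPM in Rosa26 livers and at 12.4, 15.3, 14.1, 13.2 and 13.2 CPM in HIRA livers, with overlap through the highest pair of controls. Its log2 fold change was 0.34 (interval 0.08 to 0.61, adjusted p = 0.190), and 0.36 without the library that went against its label (adjusted p = 0.175). Rnf43, the partner ligase, was at 23.0 to 29.4 CPM and 24.2 to 32.0 CPM, with a log2 fold change of 0.16 (interval -0.14 to 0.47, adjusted p = 0.658), and 0.14 without that library (adjusted p = 0.711).

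Tbx3, a T-box transcriptional repressor induced by beta-catenin, was at 33.6, 37.4, 23.4, 34.9 and 34.7 CPM in Rosa26 livers and at 56.4, 40.9, 33.4, 45.8 and 54.3 CPM in HIRA livers. All HIRA libraries but replicate 3 exceeded every control. The log2 fold change was 0.49 (interval 0.11 to 0.87, adjusted p = 0.188), or 0.43 without the library that went against its label (adjusted p = 0.243).

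Glul at 6 months was at 970.5, 1430, 809, 1188 and 876 CPM in Rosa26 livers and at 981, 793, 866, 1090 and 693 CPM in HIRA livers. The controls were much more spread at 6 months than at 3 weeks (SD 254 against 59.4 CPM). The log2 fold change was -0.25 (interval -0.54 to 0.03, adjusted p = 0.391), and -0.18 without the library that went against its label (adjusted p = 0.538). Leaving out Rosa26 replicate 2, the highest control, gave -0.12 (adjusted p = 0.714).

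Oat and Rhbg had the widest spread in the 6-month HIRA livers. Oat was at 286, 504.5, 827, 862 and 389.5 CPM there, against 427.9 to 729 CPM in Rosa26 livers (log2 fold change -0.15, interval -0.63 to 0.33, adjusted p = 0.820), and without the library that went against its label the value was -0.04 (adjusted p = 0.954). Leaving out Rosa26 replicate 2, the lowest control, gave -0.265 (adjusted p = 0.651), and the alternatives ran from -0.345 to 0.01. Rhbg was at 1.09, 2.10, 6.35, 3.33 and 1.63 CPM, against 2.98 to 6.47 CPM (-0.56, interval -1.30 to 0.18, adjusted p = 0.488), and -0.41 without that library (adjusted p = 0.610). Both genes were lowest in HIRA replicate 1 and highest in replicates 3 and 4, and leaving out replicate 3 moved Rhbg to -1.07 (adjusted p = 0.107). Rhbg had 28 to 153 counts per library in this group, which is the least depth of any member. Slc1a2 lay at 71.2 to 121 CPM and 89.1 to 132 CPM (0.03, interval -0.24 to 0.29, adjusted p = 0.947), also 0.03 without that library. Lgr5 lay at 3.53 to 9.23 CPM and 4.25 to 7.38 CPM (-0.02, interval -0.47 to 0.43, adjusted p = 0.986), and at -0.07 without it. Over the alternatives Lgr5 ran from -0.16 to 0.21, with the sign changed in 8 of 20.

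**Figure D3:**
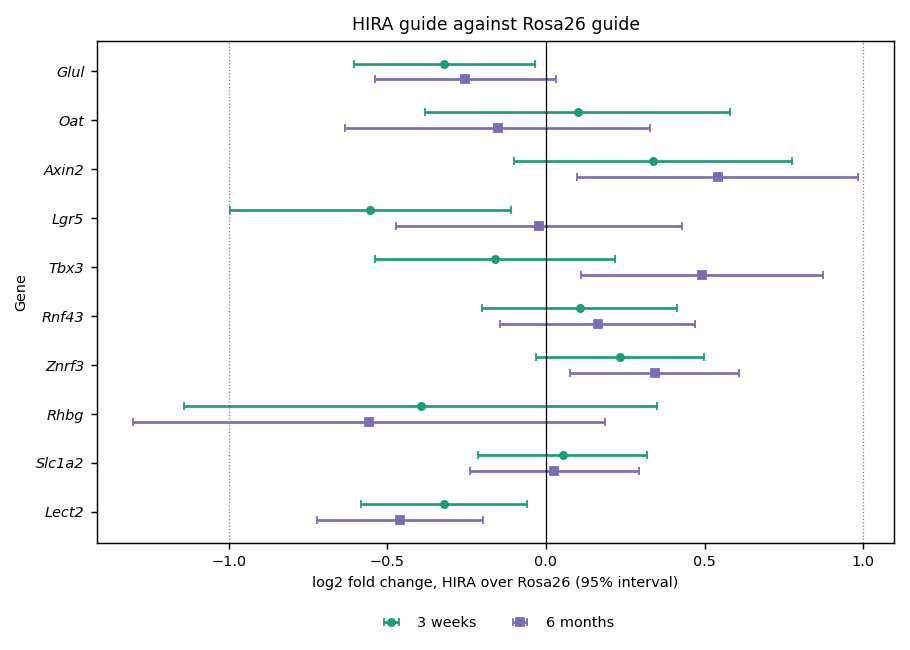
Log2 fold change of each gene, HIRA guide over Rosa26 guide, at 3 weeks (circles) and 6 months (squares) with 95% intervals from edgeR; dotted lines mark a 2-fold change. Lect2 is below 0 at both times (-0.32 and -0.46), Axin2 and Znrf3 are above 0 at both, and only the Rhbg intervals cross a 2-fold line.

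Markers of other cells were measured beside these genes at 6 months. Of 6 endothelial markers, 2 (Stab2 and Kdr) were higher at unadjusted p under 0.05 and 0 lower, against 15.5% of all genes in either direction, and the list summed to 121 to 232 CPM in Rosa26 livers and 143 to 249.8 CPM in HIRA livers. Of 6 stellate and fibroblast markers, 2 (Reln and Dcn) were higher, with sums of 174.5 to 315 and 190.5 to 733 CPM. None of these markers passed adjusted p under 0.05 in edgeR, DESeq2 or limma-voom. The Kupffer cell, cholangiocyte and lymphocyte lists had 0 markers at unadjusted p under 0.05 in this contrast. Without the library that went against its label these counts were larger: 4 of 6 endothelial markers (sums from 179 CPM), 5 of 6 stellate and fibroblast markers (from 297 CPM), 3 of 5 lymphocyte markers and 1 of 5 cholangiocyte markers were higher at unadjusted p under 0.05, and 0 of each were lower, against 17.7% of all genes in either direction in that fit, with 0 past adjusted p under 0.05 in edgeR. The part of these cells in the Axin2, Znrf3 and Tbx3 values was not tested.

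Whether the guide effect differed between the times was tested directly as an interaction. No member passed adjusted p under 0.05 in edgeR, DESeq2 or limma-voom, and neither did any other gene (0% of those tested, or 0% with the 2-fold limit). At unadjusted p under 0.05 there was 1 member, Tbx3, against 6.62% of all genes. Tbx3 had log2 fold changes of -0.16 at 3 weeks and 0.49 at 6 months, a difference of 0.65 (interval 0.12 to 1.19, adjusted p = 0.689), or 0.59 without the library that went against its label. Without Rosa26 3 weeks replicate 1 the 3-week value was 0.02 and the difference 0.47 (adjusted p = 0.813), so the opposite signs rested on that library. For Lgr5 the difference was 0.53 (interval -0.10 to 1.16, adjusted p = 0.805), or 0.48 without HIRA 6 months replicate 5, and the other 8 lay between -0.25 (Oat) and 0.20 (Axin2), or between -0.18 (Lect2) and 0.33 (Axin2) without HIRA 6 months replicate 5. The median was 0.06 over the members and 0.03 over all genes. The interval stayed inside a 2-fold difference for 7 of 10, the exceptions being Lgr5, Tbx3 and Rhbg. In the same interaction 0 of 14 clock genes were higher and 6 lower at unadjusted p under 0.05 (1 and 7 without HIRA 6 months replicate 5, against 7.64% of all genes in that fit), with 0 past adjusted p under 0.05 in edgeR, DESeq2 or limma-voom, and their part in the member values was not tested.

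The control arm was then compared between the times. These Rosa26 libraries are also the controls of both guide comparisons, so these contrasts are not independent of each other. In edgeR 0 of 10 members passed adjusted p under 0.05 at 6 months against 3 weeks, compared with 0.324% of all genes, or 0.162% with the 2-fold limit. Limma-voom called 0 and DESeq2 called 1 (Lgr5). At unadjusted p under 0.05 there were 5 of 10, compared with 12.8% of all genes, and all 5 (Glul, Axin2, Lgr5, Tbx3 and Znrf3) had lower means at 6 months. In all, 8 members were below 0 and 2 (Oat and Rhbg) above, with a median of -0.28 against 0.00 for all genes. The interval lay inside a 2-fold change for 9 of 10, all but Lgr5.

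Lgr5 was at 9.58 to 12.0 CPM in Rosa26 livers at 3 weeks and at 6.36, 9.23, 3.53, 5.00 and 5.00 CPM at 6 months. It was the single member whose groups did not overlap, compared with 3.5% of all genes. Group means were 10.5 ± 0.93 CPM early and 5.82 ± 2.15 CPM late (SD, n = 5). Lgr5 thus had a log2 fold change of -0.85 (interval -1.30 to -0.41), with adjusted p = 0.0792 in edgeR, 0.0558 in limma-voom and 0.0107 in DESeq2. Without Rosa26 6 months replicate 2, which had the highest late value, it was -1.08 with adjusted p = 0.0230 in edgeR and passed both limits.

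In the same contrast Glul had a log2 fold change of -0.38 (interval -0.67 to -0.10, adjusted p = 0.225) and Znrf3 of -0.36 (interval -0.62 to -0.09, adjusted p = 0.224). Tbx3 was at -0.47 (interval -0.85 to -0.09, adjusted p = 0.264), or -0.29 without Rosa26 3 weeks replicate 1 (adjusted p = 0.562), and Axin2 at -0.45 (interval -0.889 to -0.002, adjusted p = 0.390). Oat stood on the other side at 0.45 (interval -0.03 to 0.94, adjusted p = 0.427). The 3-week and 6-month Rosa26 ranges overlapped for each of these 5 genes. Lect2 was at -0.02 (interval -0.28 to 0.24, adjusted p = 0.984). In the clock list 4 of 14 genes were higher at 6 months at adjusted p under 0.05 (Dbp by 4.40 ± 0.79, Per3 by 2.69 ± 0.53, Tef by 1.35 ± 0.29 and Nr1d2 by 1.02 ± 0.22), and 0 were lower (0.324% of all genes). At unadjusted p under 0.05, 7 were higher and 6 lower (12.8% of all genes in either direction), among them Npas2 at -1.48 ± 0.54 and Cry1 at -1.16 ± 0.35. Limma-voom called 0 and DESeq2 8, of which Cry1 was lower and the other 7 higher. Of 6 endothelial markers, 0 were higher and 2 lower at unadjusted p under 0.05, with sums of 194 to 248 CPM at 3 weeks and 121 to 232 CPM at 6 months. Hepatocyte markers had 0 higher and 2 lower by that measure (Apoa1 at -0.53 ± 0.16 and Serpina3k at -0.75 ± 0.35), with sums of 105678 to 148869 CPM at 3 weeks and 82906 to 123226 CPM at 6 months. Of 5 Kupffer cell markers 1 was lower (Timd4 at -1.21 ± 0.34), with sums of 268 to 380 and 157 to 1136 CPM, and of 5 lymphocyte markers 1 was higher (Ms4a1 at 0.82 ± 0.34), with sums of 5.64 to 9.07 and 5.79 to 19.3 CPM. The cholangiocyte and stellate cell lists had 0, and the share of all genes beside these marker counts was 12.8% in either direction. None of these markers passed adjusted p under 0.05 in edgeR or limma-voom, while DESeq2 called Apoa1 and Timd4. The part of the clock genes and of these cells in the member values was not tested.

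In HIRA livers 0 of 10 members passed adjusted p under 0.05 between the times in edgeR, DESeq2 or limma-voom, compared with 0.0656% of all genes in edgeR, or 0.0569% with the 2-fold limit. Glul was the 1 member at unadjusted p under 0.05, compared with 8.95% of all genes (log2 fold change -0.32, interval -0.60 to -0.03, adjusted p = 0.515, and -0.24 without the library that went against its label). There was no member whose groups did not overlap, compared with 1.47% of all genes. The median was -0.20 over members and 0.03 over all genes, with 8 below 0, and all 10 intervals lay inside a 2-fold change. Lgr5 was at -0.32 (adjusted p = 0.718), Znrf3 at -0.25 (adjusted p = 0.597), Axin2 at -0.24 (adjusted p = 0.798) and Tbx3 at 0.18 (adjusted p = 0.835). Without the library that went against its label they were at -0.37, -0.23, -0.12 and 0.12, and by the same fit 5 of 6 stellate and fibroblast markers and 4 of 5 lymphocyte markers were higher at 6 months at unadjusted p under 0.05, against 1 of each list with it (10.1% and 8.95% of all genes in either direction). The part of these cells in the member values was not tested. The time contrast in the 2 arms was compared by the interaction above, which is the same difference.

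**Figure D4:**
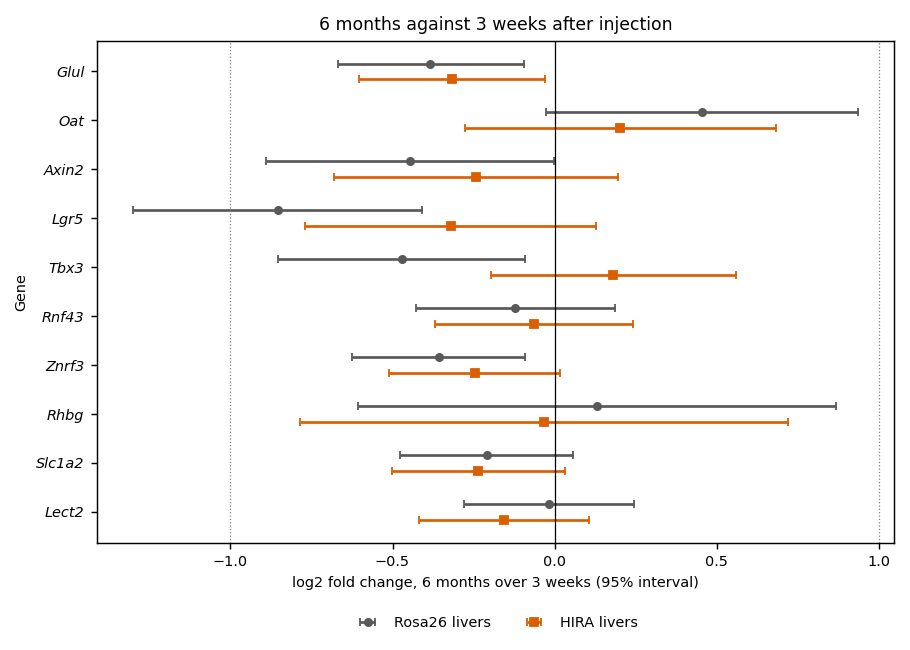
Log2 fold change of each gene at 6 months over 3 weeks in Rosa26 livers (circles) and in HIRA livers (squares), with 95% intervals from edgeR; dotted lines mark a 2-fold change. Lgr5 in Rosa26 livers has the lowest value (-0.85), and all intervals of the HIRA livers lie inside the 2-fold lines.

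The rest of the Wnt pathway was read from fixed lists. Among 7 Wnt ligands and R-spondins, none passed adjusted p under 0.05 in edgeR, DESeq2 or limma-voom in any of the 5 contrasts. In both guide comparisons 0 of the 7 had unadjusted p under 0.05, against 8.87% of all genes at 3 weeks and 15.5% at 6 months. In HIRA livers 2 were higher and 1 lower at 6 months by that measure, against 8.95% of all genes in either direction. Without the library that went against its label these were 4 and 0, against 10.1%. Rspo3, the R-spondin of the central vein, averaged 5.13 CPM and had log2 fold changes of 0.09 ± 0.18 at 3 weeks and 0.31 ± 0.18 at 6 months (0.37 ± 0.19 without that library). Wnt4 averaged 4.48 CPM, with 0.19 ± 0.26 and 0.14 ± 0.26 (0.29 ± 0.24).

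Among 12 secretion and receptor genes, Fzd1, a Frizzled receptor, rose with the HIRA guide at 6 months in edgeR and 0 fell, against 1.31% of all genes called. Fzd1 was at 8.58, 9.41, 8.00, 9.59 and 9.59 CPM in Rosa26 livers and at 11.1, 10.9, 14.3, 13.3 and 13.0 CPM in HIRA livers, so the groups did not overlap, as for 3.15% of all genes (log2 fold change 0.47 ± 0.10, adjusted p = 0.0263, and 0.0329 without the library that went against its label). At 3 weeks its groups did not overlap either, as for 2.69% of all genes (0.31 ± 0.10, adjusted p = 0.272). The 6-month call was lost, at adjusted p from 0.0537 to 0.0674, on leaving out Rosa26 replicate 1, 3 or 4 or HIRA replicate 3. Fitting the 2 groups of that contrast alone gave Fzd1 an adjusted p of 0.131 in edgeR. That fit called 0 of 20832 genes, against 299 of 22867 in the fit of all 4 groups. Fzd4, the other Frizzled gene that passed, rose with time in Rosa26 livers, where 0.324% of all genes passed. It lay at 15.5 to 22.2 CPM at 3 weeks and at 27.8 to 35.1 CPM at 6 months (0.73 ± 0.14, adjusted p = 0.0237). That call was lost on leaving out Rosa26 3 weeks replicate 1, 3 or 4 or Rosa26 6 months replicate 3 or 4 (adjusted p up to 0.0968). At 3 weeks Fzd4 was also higher with the HIRA guide, without overlap, as for 2.69% of all genes (0.46 ± 0.14, adjusted p = 0.219). In HIRA livers Fzd4 had 0.30 ± 0.14 between the times (adjusted p = 0.537), or 0.18 ± 0.13 without the library that went against its label. No other gene of this list passed in edgeR or limma-voom, while DESeq2 also called Lgr4, an R-spondin receptor with a lower mean (edgeR -0.34 ± 0.11, adjusted p = 0.117), and Lrp5, with a higher mean, at 6 months with the guide, and Lrp5 between the times in Rosa26 livers. Without the library that went against its label Lrp5, a co-receptor of Frizzled, passed in edgeR as well (0.41 ± 0.08, adjusted p = 0.0196, against 0.32 ± 0.10 and 0.101 with it).

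Among 17 genes of beta-catenin signal transduction, against 1.31% of all genes called in edgeR, 1 rose at 6 months with the HIRA guide in edgeR and limma-voom. This was Dvl3, a Dishevelled adaptor, at 26.3, 27.5, 18.7, 20.5 and 24.8 CPM in Rosa26 livers and 30.8, 31.8, 34.7, 26.1 and 35.1 CPM in HIRA livers (0.43 ± 0.10, adjusted p = 0.0440). Without the library that went against its label adjusted p was 0.0681, and leaving out Rosa26 replicate 1, 3, 4 or 5 or HIRA replicate 1, 2 or 3 also ended the call (adjusted p 0.0582 to 0.144). With the 2 groups alone adjusted p was 0.197, and only 8 of 20 alternatives kept the call. DESeq2 called Dvl3 and Bcl9l (edgeR 0.43 ± 0.12, adjusted p = 0.0869) for the guide at 6 months, and Dvl1 (-0.26 ± 0.07, adjusted p = 0.130) and Dvl3 (-0.38 ± 0.10, adjusted p = 0.106) between the times in Rosa26 livers. Ctnnb1, which encodes beta-catenin and averaged 149 CPM, had -0.03 ± 0.09 at 3 weeks and -0.14 ± 0.09 at 6 months (-0.08 ± 0.09 without the library that went against its label). Of 9 tested inhibitors and feedback genes (10 listed), none passed in any contrast in edgeR or limma-voom, and DESeq2 called Notum between the times in Rosa26 livers. For the guide, 0 at 3 weeks and 1 at 6 months (3 without the library that went against its label) had unadjusted p under 0.05. The shares of all genes were 8.87% and 15.5% (17.7% without that library). Notum, a secreted Wnt deacylase and feedback target, averaged 54.4 CPM and had 0.20 ± 0.17 and 0.40 ± 0.18 for the guide and -0.61 ± 0.18 between the times in Rosa26 livers (adjusted p = 0.835, 0.276 and 0.130). Its 6-month guide value without that library was 0.52 ± 0.16 (adjusted p = 0.106). Nkd1, an intracellular feedback inhibitor, averaged 7.66 CPM, with 0.01 ± 0.17 and 0.13 ± 0.17 (0.22 ± 0.16).

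Of 16 other pericentral hepatocyte genes, Slc13a3 fell with the HIRA guide at 3 weeks and Rgn fell at 6 months, each in edgeR, DESeq2 and limma-voom. In edgeR 0.197% of all genes passed at 3 weeks and 1.31% at 6 months. Slc13a3, a dicarboxylate transporter, was at 51.4, 85.6, 45.7, 51.9 and 28.9 CPM in Rosa26 livers and at 17.1, 21.1, 18.4, 19.3 and 21.99 CPM in HIRA livers, without overlap, as for 2.69% of all genes (-1.43 ± 0.23, adjusted p = 0.0187). Leaving out HIRA 3 weeks replicate 4 or 5 gave adjusted p of 0.0640 or 0.0559. At 6 months it had -0.68 ± 0.23 (adjusted p = 0.145), and the difference between the times was 0.75 ± 0.32 (adjusted p = 0.728). Without the library that went against its label these were -0.60 ± 0.24 and 0.83 ± 0.33. Rgn, regucalcin, was at 1185 to 1552 CPM in Rosa26 livers and 773 to 1226 CPM in HIRA livers at 6 months (-0.50 ± 0.12, adjusted p = 0.0395, and 0.0385 without the library that went against its label). Rgn lost the call on leaving out Rosa26 replicate 1, 2, 4 or 5 or HIRA replicate 1, 3 or 4, at adjusted p from 0.0506 to 0.116. With the 2 groups alone its adjusted p was 0.173. Cyp2e1, the most abundant of the list at 5001 CPM, had 0.16 ± 0.19 and 0.25 ± 0.19 (0.08 ± 0.18 without the library that went against its label). DESeq2 also called Cyp2a5, which was higher with the guide at 3 weeks (edgeR 1.00 ± 0.28, adjusted p = 0.190), and in HIRA livers between the times it called Cyp1a2 (-0.81 ± 0.18, adjusted p = 0.109) and Rgn (-0.42 ± 0.12, adjusted p = 0.242). The list's median was 0.01 at 3 weeks and 0.04 at 6 months.

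Periportal genes, which Wnt signaling keeps low around the central vein, had 0 of 14 past adjusted p under 0.05 in every contrast in edgeR and limma-voom, and DESeq2 called 1 (Ctsc) for the guide at 6 months and 1 (Uroc1) between the times in Rosa26 livers. At 6 months with the HIRA guide 1 was higher and 5 lower at unadjusted p under 0.05, against 15.5% of all genes in either direction. The list's median was -0.25 against 0.03 for all genes. Without the library that went against its label 1 was higher and 3 lower, against 17.7% of all genes in that fit. Alb, the most abundant, had 0.28 ± 0.17 and 0.35 ± 0.17 (0.36 ± 0.17 without it), and Ass1, an enzyme of the urea cycle, 0.19 ± 0.21 and -0.29 ± 0.21 (-0.25 ± 0.23 without it).

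How the members varied among themselves within groups was read from log2 CPM after removing group means. Over 20 libraries, 0 of 9 correlations of Glul with another member passed Benjamini-Hochberg adjustment in permutation tests within groups. The highest was with Slc1a2 (Pearson r = 0.522, permutation p = 0.0754, adjusted 0.340; Spearman rho = 0.235, permutation p = 0.385, adjusted 0.870), and it was 0.577 without the 2 libraries farthest in Glul. Axin2 followed (r = 0.449, permutation p = 0.132, adjusted 0.397; rho = 0.386, permutation p = 0.146, adjusted 0.657), at 0.329 without those libraries. Glul and Lect2, which both had lower means with the HIRA guide, had r = -0.125 (permutation p = 0.623, adjusted 0.786). Single libraries lay to one side of the mean for several genes: Rosa26 3 weeks replicate 1 and Rosa26 6 months replicate 2 were above their group mean for 8 of the 10, and Rosa26 3 weeks replicate 4, Rosa26 6 months replicate 3 and HIRA 6 months replicate 2 were below it for 8 of the 10. For Lgr5 the deviations of Rosa26 6 months replicates 2 and 3 were 0.73 and -0.64 on the log2 scale, and for Axin2 0.40 and -0.64.

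**Figure D5:**
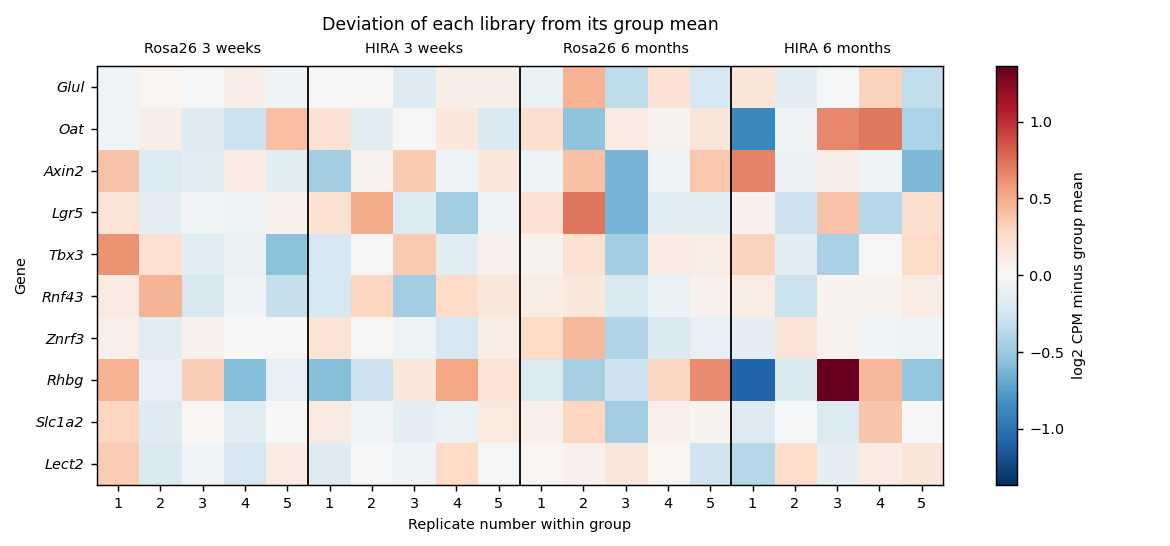
Log2 CPM minus the group mean for each gene (vertical) in each library (horizontal, by group and replicate), red above and blue below the mean. Rhbg and Oat reach their extremes in HIRA 6 months (Rhbg -1.08 in replicate 1 and 1.36 in replicate 3), and 5 libraries lie on one side of the mean for 8 of 10 genes.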

How the data were processed

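Whole-liver poly(A) RNA was measured in 20 libraries, 5 in each of 4 groups taken from the sample labels. The authors deposited raw counts per gene and FPKM values. The submitters' processing notes name STAR, HTSeq, Cufflinks and mm10, whereas the study's methods describe counting by HOMER; strand use in counting is not given in the sources used here. Counts were tested with edgeR 4.0.16 (quasi-likelihood, TMM, 4 group means, R 4.3.3) after keeping genes with at least 10 counts in total, with Benjamini-Hochberg adjustment. A gene was called at adjusted p under 0.05, and members were also counted with an absolute log2 fold change above 1 added. CPM, log2 CPM (prior count 2) and RPKM were computed here from the deposited counts and GENCODE M21 exon unions. The deposited FPKM served as an alternative (limma 3.58.1 on log2 of FPKM plus 1 or 0.1, where folds of low genes are understated), as did DESeq2 1.42.0, limma-voom, other normalization and filters, the 2 groups of a contrast alone, a replicate block and leaving out each library. Correlations used 100000 permutations and were 2-sided. Named were all members, list genes past adjusted p under 0.05 or else a list's 2 most abundant, and the 5 genes most like Glul and Axin2, of which 1 is not reported here. Ctnnb1, Cyp2e1, the single cell-type markers and the other list genes outside this rule were named after their values were seen. The members and lists were chosen with earlier results of these data known. The procedure was checked on simulated data. Libraries held 19916430 to 24079736 counts, and low counts limit the precision of Rhbg and Lgr5.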

Additional observations from a re-analysis of the deposited data

Results flagged for a closer look

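In each of the 40 combinations of gene and group, the library at either end was set against the other 4 by its gap over the range, for which chance alone marks about 1 in 20 groups. In 4 of the 40 the gap exceeded Dixon's critical value, each time with a low library. Glul was at 9.93 log2 CPM (977 CPM) in HIRA 3 weeks replicate 3, a gap of 0.712 of the group's range. Oat was at 8.74 log2 CPM (427.9 CPM) in Rosa26 6 months replicate 2, a gap of 0.776. Tbx3 was at 4.56 log2 CPM (23.4 CPM) in Rosa26 6 months replicate 3, a gap of 0.769. Rnf43 was at 4.60 log2 CPM (24.2 CPM) in HIRA 6 months replicate 2, a gap of 0.843.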

How the results depend on the processing

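The count of members past both limits (adjusted p under 0.05 and over 2-fold) was 0 of 10 in all 5 contrasts and stayed at 0 under every alternative run, with 1 exception: on leaving out 1 library at a time, the count for 6 months against 3 weeks in Rosa26 livers ran from 0 to 1, through Lgr5 without Rosa26 6 months replicate 2 (log2 fold change -1.08, adjusted p = 0.0230). Of 1090 recomputed member fold changes, 6 moved by over 1 standard error, of which 5 came from leaving out a library and 1 from FPKM, and 42 changed sign, 0 of them for a value larger than its standard error. The fit of the 2 groups alone could not be made for the interaction. Same-numbered libraries correlated above 0.1 in only 2 of 5 pairs in each of 4 group pairs, and 1 to 3 of 10 libraries correlated best with their own number, so the numbers were not taken as pairs. With the replicate block the count of members past both limits was 0 in every contrast, Lect2 under the HIRA guide at 6 months had -0.46 (adjusted p = 0.108) and Lgr5 between the times in Rosa26 livers -0.89 (adjusted p = 0.0501). The alternatives for Fzd1, Fzd4, Dvl3, Rgn and Slc13a3, and the lists without HIRA 6 months replicate 5, were chosen after seeing the data; Fzd1 lost its call in 7 of 20, Fzd4 in 6, Dvl3 in 12, Rgn in 9 and Slc13a3 in 2, each with its direction kept. Depth limits Rhbg (28 to 153 counts per library at 6 months with the HIRA guide) and Lgr5 most. At adjusted p alone, DESeq2 called Lect2 at 6 months (0.0172, or 0.0269 without independent filtering) and Lgr5 in Rosa26 livers (0.0107, or 0.0158).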

Other observations

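Among the genes whose log2 CPM, centred on group means, followed Glul most closely over the 20 libraries were Cd276 (Pearson r = 0.832), Scara3 (0.793), Mtcl1 (0.763) and Wnk2 (0.751). They were taken from the highest of 11876 genes, so the values are a description, and libraries share depth and composition. Without the library labelled HIRA 6 months replicate 5 these were 0.803, 0.752, 0.725 and 0.698. For Axin2 the closest were Avpr1a, the vasopressin receptor of hepatocytes (r = 0.827), Dnmt3b, a DNA methyltransferase (0.814), Enho (0.798), Mpzl1 (0.795) and Chka (0.795), with 0.789, 0.785, 0.746, 0.752 and 0.775 without that library.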
